A study of Taeniopygia guttata with 10 samples.

Results

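Of 18618 gene identifiers counted by RNA-seq in 2 zebra finch tumor cell lines, 85 were measured with at least 10 counts in both solvent control libraries and were at least 8-fold higher after 5-aza-2'-deoxycytidine (AZA) in both lines. The ratio was that of CPM, counts scaled to a column sum of 1000000 per library. The 85 genes were thus selected on the AZA to DMSO ratio of the same RNA-seq counts, so their ratios are given as a description and without a test. They made up 0.701% of the 12125 genes with the minimum of DMSO counts, whereas 2 of these genes (0.0165%) were at least 8-fold lower in both lines.

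DNA methylation at CpG sites is copied to the new strand after replication by the maintenance methyltransferase DNMT1. AZA is a cytidine analog that is built into DNA during replication and traps methyltransferases there, so that methylation is lost as cells divide. Genes with methylated promoters are often silent, and AZA is widely used to see which silent genes can be switched on again.

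The lines grew out of tumors that arose in zebra finches without induction, outside the nervous system, and no cell type is given for them. G266 is labelled male and has a diploid genome by the study's methods, and ZFTMA is labelled female and is tetraploid. Each line received 1 μM AZA, or the solvent dimethyl sulfoxide (DMSO) alone, over 72 hours, with a new dose every 24 hours. RNA-seq was done on 1 AZA- and 1 DMSO-treated library per line. MethylCap-seq, in which a methyl-CpG binding domain captures methylated DNA fragments before sequencing, was done on AZA- and DMSO-treated DNA of both lines and on untreated ZFTMA DNA. Reduced representation bisulfite sequencing (RRBS), which gives the percentage of methylated reads per CpG, was done on untreated ZFTMA DNA alone.

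The RNA-seq libraries held 22306354 to 35075936 counts. The libraries labelled G266 and ZFTMA were very alike. Among 10115 genes with at least 50 counts in all 4 libraries, 99.7% of the genes lay within 2-fold between the lines after AZA and 99.6% after DMSO. The correlation of log2 CPM across these genes was 0.993 between the lines after AZA and 0.993 after DMSO, and 0.963 between AZA and DMSO in G266 and 0.966 in ZFTMA. They were not 1 library deposited again, since counts differed by more than sampling noise (mean chi-square per gene with 1 degree of freedom of 23.5 after AZA and 26.8 after DMSO). Birds do not balance the expression of Z-linked genes fully between ZZ males and ZW females. Nevertheless, the median log2 ratio of G266 to ZFTMA over 97 placed Z-linked genes was -0.02 after AZA and 0.06 after DMSO, against -0.03 and 0.01 over 1503 autosomal genes. In MethylCap-seq the lines were less alike. Over 124372 peaks with at least 40 counts over both DMSO libraries, log2 counts correlated at 0.736 between G266 and ZFTMA DMSO libraries. The untreated and DMSO libraries of ZFTMA correlated at 0.939. These peaks were chosen on the DMSO libraries, which may affect the correlations unequally. Peak fragments on chromosome Z, relative to those on chromosomes 1 to 4, were 19.15% in G266 and 17.84% in ZFTMA after DMSO. After AZA they were 18.75% and 18.31%. Whether the MethylCap-seq libraries match the labelled sex was not tested. The agreement between the RNA-seq libraries of the lines is therefore not counted as independent support below, and the lines are named as labelled.

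By CPM, most of the 85 genes ranked low in the control libraries and nearer the middle of the eligible genes after AZA. The selection itself favors low DMSO and higher AZA values. Their level after AZA ranged from 4.00 to 609.8 CPM in G266 (median 15.4) and from 3.49 to 598.5 CPM in ZFTMA (median 14.4). After DMSO it ranged from 0.448 to 46.9 CPM in G266 (median 0.986) and from 0.285 to 61.1 CPM in ZFTMA (median 0.855). The median member stood at the 41.0 and 39.7 percentile of the eligible genes in the AZA libraries of G266 and ZFTMA. In their DMSO libraries it stood at the 6.77 and 6.27 percentile. These ranks are not corrected for gene length. Together the genes took 0.348% and 0.315% of all counts in the AZA libraries of G266 and ZFTMA, and 0.0214% of all counts in either DMSO library. In bulk RNA, more cells that express a gene and more RNA per cell cannot be told apart.

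The median AZA to DMSO ratio of the 85 genes was 14.1 in G266 and 14.8 in ZFTMA, while the median over all eligible genes was 1.07 in G266 and 1.09 in ZFTMA. The ratios rest on few control counts: 38 of the 85 genes had under 20 counts in the G266 DMSO library and 21 in the ZFTMA DMSO library. With exact conditional binomial intervals at 95%, which cover counting error only, the lower bound was at least 4-fold in both lines for all 85 genes and at least 8-fold in both lines for 50. The intervals of the lines overlapped for 81 genes. Of the other 4, the ratio was larger in G266 for 3 and in ZFTMA for 1. Intervals were computed for the members only. These counts thus have no share over the eligible genes beside them and are not read as a trait of the members. In a fit across all 18618 genes (edgeR's quasi-likelihood test with cell line as block, FDR of 0.1), 27.8% of all genes were called higher after AZA, and all 85 genes were among them, which follows from how they were chosen.

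**Figure D1:**
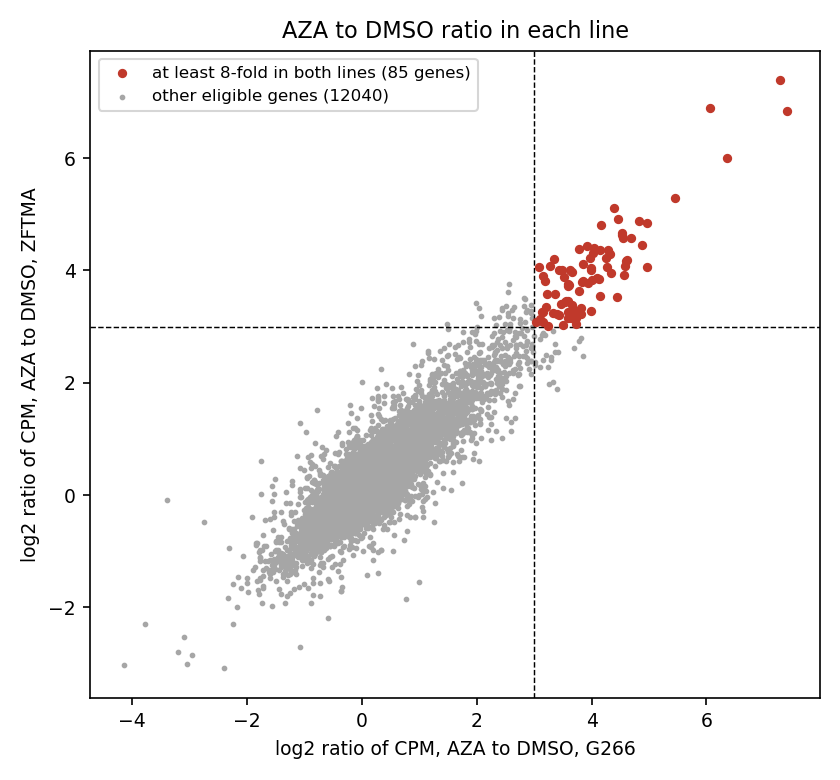
Each point is 1 of the 12125 genes with at least 10 counts in both DMSO libraries, placed by the log2 ratio of its CPM after AZA to that after DMSO in G266 (x axis) and ZFTMA (y axis); dashed lines mark 8-fold. The 85 selected genes fill the upper right corner, with 4 points far from the rest, and no gap separates the others from the genes just below 8-fold.

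The choice of genes ended at no natural gap. Just inside the threshold, the 3 lowest genes had a smaller ratio of 8.03, 8.13 and 8.18. Just outside it, the 3 highest genes had a smaller ratio of 7.79, 7.78 and 7.72, among them PSTPIP2, an adaptor protein of the actin cytoskeleton, with 82 and 76 counts after AZA in G266 and ZFTMA, against 10 and 13 counts after DMSO.

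Symbols were known for 24 of the 85 genes and positions for 33, from the gene lists supplied with the study (assembly taeGut3.2.4, Ensembl release 72). The copy of the list of genes with higher expression used here covers 1238 genes up to an identifier below which 29 members fall, and it holds all 29. The lists of genes chosen on promoter methylation place 4 more (CKB, UCHL1, RASD1 and PCSK1), and 52 members were not placed. Gene roles below are those known from mammals. Levels are in CPM, which is not corrected for gene length, so below they are compared between libraries and not between genes.

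The named members are described by role, a grouping made for reading and not tested, and the first 4 are proteins of cell adhesion or GTPase regulation. DSP (chromosome 2, 44970224 to 44999606), desmoplakin, which ties intermediate filaments to desmosomes, had 158.1 and 140.3 CPM in AZA-treated G266 and ZFTMA, against 1.93 and 2.20 CPM in DMSO-treated G266 and ZFTMA, so that its ratio was 82.0 in G266 and 63.9 in ZFTMA. EPCAM (chromosome 3, 21153193 to 21158853), the epithelial cell adhesion molecule, had 44.7 and 33.7 CPM after AZA in G266 and ZFTMA and 1.44 and 1.17 CPM after DMSO, a ratio of 31.1 and 28.9. Both genes are textbook markers of epithelia, and in both the AZA libraries lay far above the DMSO libraries. ARHGAP24 (chromosome 4, 13334247 to 13455170), a GTPase-activating protein, had 60.8 and 52.6 CPM after AZA in G266 and ZFTMA and 3.81 and 3.19 CPM after DMSO. Its relative ARHGAP40 (chromosome 20, 4544292 to 4558791) had 33.0 and 29.2 CPM after AZA in G266 and ZFTMA and 2.82 and 2.68 CPM after DMSO. The ratio was 15.95 and 16.5 for ARHGAP24 and 11.7 and 10.9 for ARHGAP40 in G266 and ZFTMA, with the lines close to each other in both genes.

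A set of 3 membrane transporters was found among the named members. SLC1A1 (chromosome Z, 64187887 to 64227155), a glutamate transporter of neurons and epithelia, had 79.9 and 69.9 CPM after AZA in G266 and ZFTMA, against 2.82 and 2.37 CPM after DMSO, and a ratio of 28.3 and 29.6. SLC2A10 (chromosome 20, 6917512 to 6920736), a facilitated glucose transporter, had 12.0 and 14.4 CPM after AZA in G266 and ZFTMA, against 0.493 and 0.798 CPM after DMSO, which was 11 and 28 counts. SLC39A8 (chromosome 4, 21339212 to 21355290), an importer of zinc, had 96.8 and 68.4 CPM after AZA in G266 and ZFTMA, against 3.09 and 4.08 CPM after DMSO. SLC39A8 was the named member whose ratio differed between the lines by more than counting error, at 31.3 (95% interval 24.6 to 40.4) in G266 and 16.8 (14.1 to 20.04) in ZFTMA. With 1 library per line and treatment, this difference has no replicate check.

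Enzymes and folding factors included the named member with the largest ratio. CKB (chromosome 5, 51781312 to 51787006), the brain type of creatine kinase, which passes phosphate between creatine and ATP, had 105.6 and 94.4 CPM after AZA in G266 and ZFTMA, against 0.628 and 0.827 CPM after DMSO. Its ratio was 168.2 (100.1 to 308.2) in G266 and 114.2 (79.3 to 171.0) in ZFTMA, and the wide intervals reflect 14 and 29 control counts. UCHL1 (chromosome 4, 47439512 to 47443659), a ubiquitin hydrolase abundant in neurons, had 35.1 and 41.3 CPM after AZA in G266 and ZFTMA and 1.52 and 1.63 CPM after DMSO, a ratio of 23.0 and 25.4. AGR2 (chromosome 2, 48233593 to 48237053), a protein of the disulfide isomerase family in the endoplasmic reticulum of secretory epithelia, had 21.0 and 21.1 CPM after AZA in G266 and ZFTMA and 0.897 and 0.884 CPM after DMSO, a ratio of 23.4 and 23.9. DHRS3 (chromosome 21, 1284819 to 1310238), which reduces retinaldehyde to retinol, had 17.7 and 22.5 CPM after AZA in G266 and ZFTMA and 1.121 and 1.40 CPM after DMSO, a ratio of 15.8 and 16.1. For AGR2 and DHRS3 the ratios of the lines were nearly equal.

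Transcription factors and signaling proteins made up the rest of the named members with high levels or ratios. WT1 (chromosome 5, 3277124 to 3309524), a zinc finger factor of kidney and gonad development, had 15.1 and 9.94 CPM after AZA in G266 and ZFTMA, against 0.852 and 0.485 CPM after DMSO. BARX2 (chromosome 24, 4146367 to 4150162), a homeobox factor, had 15.3 and 11.3 CPM after AZA in G266 and ZFTMA and 0.941 and 0.570 CPM after DMSO. Both factors thus had more CPM in G266 than in ZFTMA under either treatment, with ratios of 17.7 and 20.5 for WT1 and 16.3 and 19.8 for BARX2. The DMSO levels in G266 and ZFTMA rest on 19 and 17 counts for WT1 and 21 and 20 counts for BARX2. This difference between the lines was not tested. RASD1 (chromosome 14, 10650479 to 10651617), a Ras-like protein induced by dexamethasone, had 16.3 and 16.04 CPM after AZA in G266 and ZFTMA and 1.08 and 0.741 CPM after DMSO, a ratio of 15.1 and 21.6. GPR158 (chromosome 2, 18229073 to 18409195), a G protein-coupled receptor, had 43.9 and 53.3 CPM after AZA in G266 and ZFTMA and 2.56 and 3.68 CPM after DMSO, a ratio of 17.2 and 14.5.

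The other 9 named genes were the atypical cadherin FAT2, the secreted protein CCBE1 that is needed for lymphatic vessels, the prohormone convertase PCSK1, the chondroitin sulfate enzyme CSGALNACT1, the myosin heavy chain MYH7B, the ubiquitin ligase TRIM36, the calmodulin-like protein CALML3, and B5FZ73_TAEGU and Q75XT9_TAEGU, described only as uncharacterized proteins. Their levels after AZA were 4.00 to 13.1 CPM in G266 and 3.49 to 14.1 CPM in ZFTMA, against 0.448 to 1.08 CPM and 0.342 to 1.28 CPM after DMSO. Their ratios were 8.91 to 23.8 in G266 and 8.24 to 15.2 in ZFTMA. Reads that mapped to up to 10 places were kept by the mapper, so counts of CALML3 and MYH7B, which belong to families of similar genes, are less certain.

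**Figure D2:**
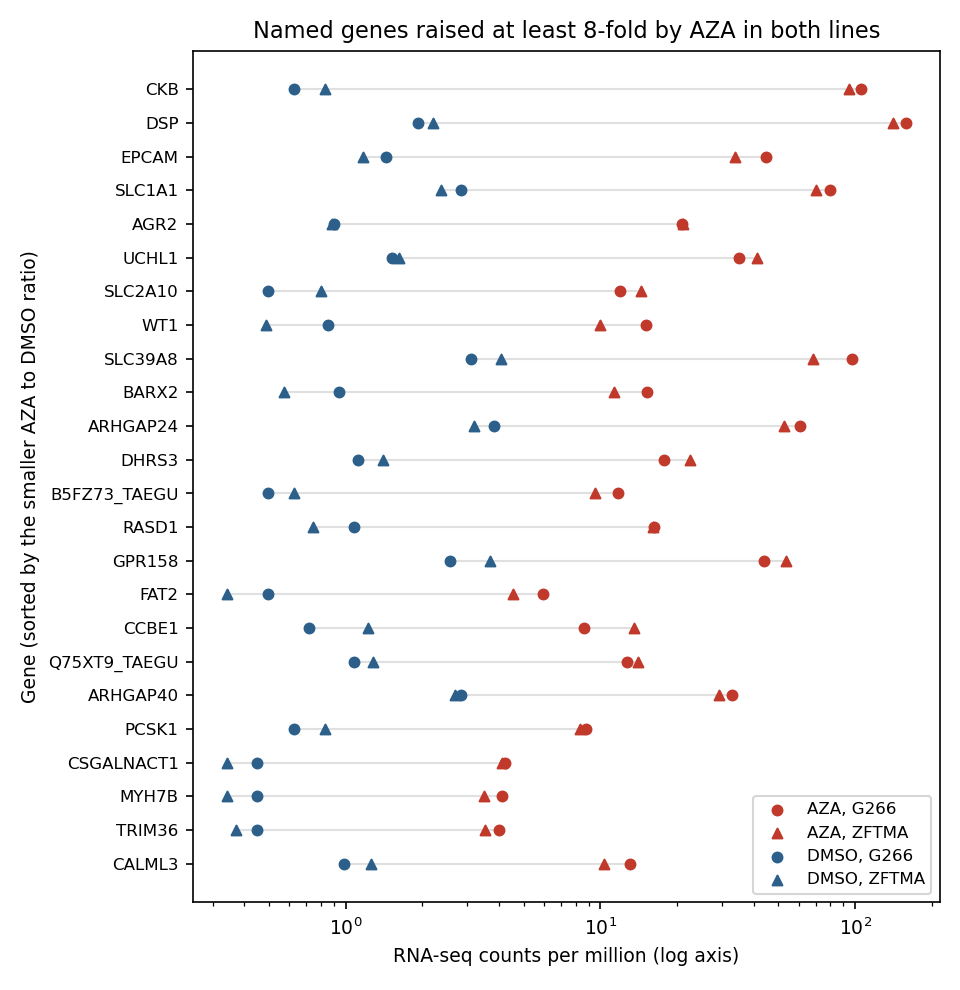
Each row is 1 of the 24 named genes, sorted by the smaller of its AZA to DMSO ratios, with its CPM on a log axis in the AZA (red) and DMSO (blue) libraries of G266 (circles) and ZFTMA (triangles). In every row the red points lie at least 8-fold to the right of the blue point of the same line, as the selection requires, and CKB and DSP have the widest spacing.

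No symbol was given for the other 61 genes. Their level after AZA had a median of 15.4 CPM in G266 and 14.4 CPM in ZFTMA, against 0.986 and 0.827 CPM after DMSO, which is close to that of all 85. The gene with the largest smaller ratio of all, ENSTGUG00000007790, had 2779 and 2413 counts after AZA in G266 and ZFTMA (118.1 and 105.2 CPM), against 17 and 22 counts after DMSO (0.762 and 0.627 CPM). ENSTGUG00000018532 had 1204 and 1170 counts after AZA in G266 and ZFTMA (51.2 and 51.0 CPM), against 17 and 15 counts after DMSO (0.762 and 0.428 CPM). By the smaller ratio, CKB stood between these genes and DSP came after them, and in G266 the ratio of CKB was above that of both.

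The members were set beside lists of genes with known roles, made of symbols that the study's gene lists hold. Those gene lists place 3176 genes, and 1238 of these are in the list that holds only genes higher after AZA. The direction of the role lists is therefore not independent. Only the 24 members with a symbol could match, and none of them was in the lists of germ line and meiosis, innate immunity, neurotransmission, matrix and proteases, growth factors, cell cycle arrest, or DNA methylation and repair. These lists are not complete: they leave out the glutamate transporter SLC1A1 and the prohormone convertase PCSK1. The absence therefore depends on how the lists were made and is not a trait of the members. The germ line list had 12 of 15 genes called higher and 0 called lower (edgeR, FDR of 0.1 over all genes; 9 higher and 0 lower by DESeq2, and 0 lower at an unadjusted edgeR p under 0.05), with a median ratio of 2.17 and 2.05 in G266 and ZFTMA over the 7 genes that met the minimum of 10 DMSO counts. The minimum left out the other 8, among them 2 chosen here after their values were seen. The germ cell RNA helicase DDX4 had 1103 and 701 counts after AZA in G266 and ZFTMA, against 6 and 11 after DMSO, and RBM46 had 561 and 384 counts after AZA, against 0 and 3 after DMSO. In the DNA methylation and repair list, 2 of 7 genes were called higher (NEIL1 and XPA) and 2 lower (MGMT and OGG1) by edgeR, while DESeq2 called 0 higher and 1 lower. The methyltransferase DNMT3B had 10 and 11 counts after AZA in G266 and ZFTMA, against 5 and 5 counts after DMSO. Over all 18618 genes, edgeR called 27.8% higher and 3045 genes lower, and DESeq2 called 2361 genes higher and 2519 lower.

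Among lists of cell type markers, 3 members appeared: EPCAM and DSP among 9 epithelial markers, and UCHL1 among 9 neuronal markers. These lists are not complete either, since the muscle list leaves out the myosin heavy chain MYH7B. Of the epithelial markers, 8 of 9 were called higher and 0 lower by edgeR (6 higher and 0 lower by DESeq2, and 0 lower at an unadjusted edgeR p under 0.05), and the summed level of the list was 329 and 285 CPM after AZA in G266 and ZFTMA, against 74.3 and 68.6 CPM after DMSO. The epithelial genes other than EPCAM and DSP had far smaller ratios or few counts: the protease ST14 had 115 and 99.4 CPM after AZA in G266 and ZFTMA, against 66.9 and 60.4 CPM after DMSO, whereas the tight junction gene CLDN4 had 4 and 5 counts after AZA, against 0 and 1 after DMSO. Of the neuronal markers, 6 were called higher and 3 lower (5 and 2 by DESeq2). By edgeR, 9 of 11 markers of blood cells, 8 of 9 of muscle, 5 of 8 of endothelium and 3 of 4 of melanocytes were called higher (7, 4, 3 and 2 by DESeq2), and 1 muscle marker (ACTA1) was called lower. Of 7 fibroblast markers, 4 were called higher and 3 lower (COL1A2, THBS2 and COL6A1), and their summed level was 6097 and 7758 CPM after AZA in G266 and ZFTMA, against 8264 and 8585 CPM after DMSO. By edgeR 27.8% of all 18618 genes were called higher and 3045 were called lower, and DESeq2 called 2361 higher and 2519 lower. At the same FDR the study called fewer genes higher and far fewer lower, and the reason was not tested. The marker lists were limited in the same way to symbols that the study's gene lists hold, so their direction is not independent either. The part of other cell types in the members' ratios was not tested.

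The 29 members placed by the expression list lay on 14 chromosomes, with 5 on chromosome 2, 4 each on chromosomes 4 and 13, and 3 each on chromosomes 20 and Z. Chromosome 20 held 3 of the 29 members and 26 of all 1238 genes of the expression list, and chromosome 13 held 4 of the 29 and 77 of the 1238. The median distance between gene start and gene end was 23632 bp for the 29 members and 10184 bp for the expression list. With 29 genes these figures are a description, and no test was made. Of the 1238 genes of the expression list, 577 met the minimum of 10 DMSO counts that all members met. Members and the list thus differ in control level, here and in the methylation comparisons below.

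DNA methylation is a readout that the selection did not use. It was taken from Methylation Peaks, the regions that the study defined by the summed coverage of both DMSO libraries, that overlapped 2000 bp outside and 500 bp inside either end of a gene, since the strand was not given. Of the 29 members, 27 had at least 1 such peak and 26 (89.7%) at least 1 that fell after AZA, as did 1196 of the 1238 genes of the expression list (96.6%). In all, 82 of their 116 gene-end peaks (70.7%) fell and 0 rose, also at an unadjusted p under 0.05 or by DESeq2 (edgeR's quasi-likelihood test with cell line as block, library size taken from reads outside peaks, FDR of 0.1 over all 719917 peaks). Over all peaks 54.6% fell, over peaks with at least 10 counts 76.9% fell (81 of 91 such peaks, 89.0%, at the members' gene ends and 89.5% over the expression list), and over the gene-end peaks of all 1238 genes of the expression list 72.1% fell. The members' share was thus near this background of other genes with higher expression after AZA. The study also scaled by reads between peaks, paired the lines and used an FDR of 0.1. It called a far smaller share of the same peaks lower after AZA than the fit here, so most peaks called lower here were not called lower by the study. The reason for this difference was not tested. The calls here rest on the scaling. With all non-duplicate reads as library size 29 of the 116 peaks fell (21.7% over the expression list), and with TMM on the peak counts 0 fell by edgeR (0.0773% over the expression list). With TMM, 8 were lower and 0 higher at an unadjusted edgeR p under 0.05. That count has no share over other peaks beside it and is not read as a drop. The share of fragments inside peaks was 48.4% and 57.4% in the AZA libraries of G266 and ZFTMA, against 84.4% and 91.1% in the DMSO libraries.

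The size of the drop was also close to that of the other genes of the expression list, many of which did not meet the members' minimum of DMSO counts. Fragments at gene ends, summed per gene and scaled to 1000000 reads outside peaks, had a median over the 29 members of 10.3 and 15.9 in AZA-treated G266 and ZFTMA, against 61.1 and 162.1 in DMSO-treated G266 and ZFTMA. On the log2 scale the median change from DMSO came to -2.61 for G266 (27 members with at least 10 fragments) and to -3.30 for ZFTMA (26 members), while the other genes of the expression list had medians of -2.50 for G266 and -3.19 for ZFTMA. In untreated ZFTMA, a library that did not define the peaks, the median log2 ratio to DMSO was 0.31 over the members and 0.29 over the other genes, and 1 of 26 members and 171 of 1166 other genes were below 0. With non-duplicate reads as library size, the median over the members' gene-end peaks in this comparison was 0.12, against 0.29 with reads outside peaks, and 28 of 75 peaks were below 0, while the other genes' peaks had a median of 0.13 with non-duplicate reads.

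**Figure D3:**
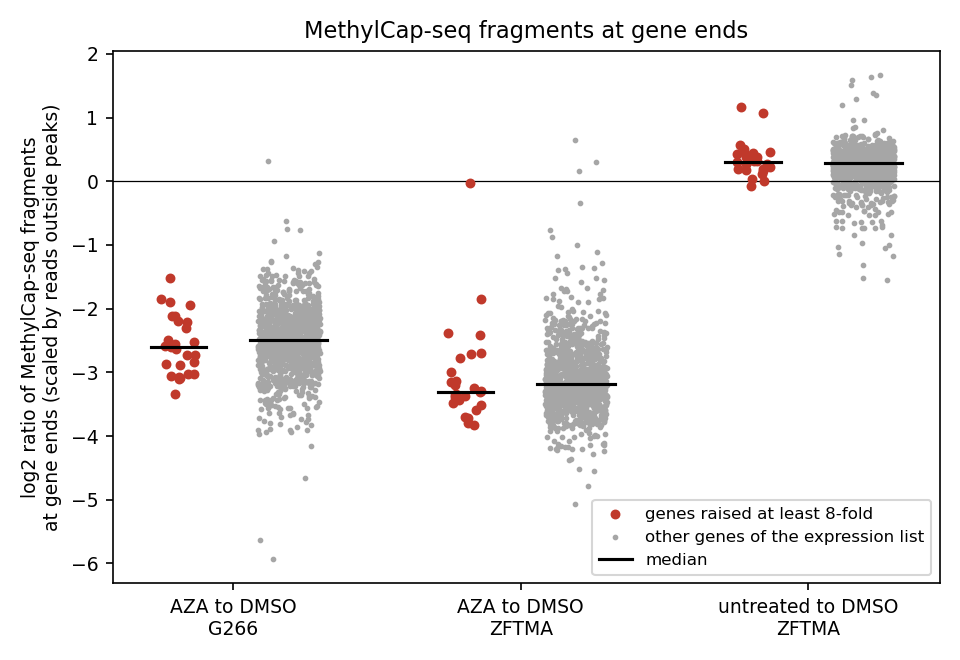
Each point is a gene, with the log2 ratio of its MethylCap-seq fragments at gene ends on the y axis for AZA to DMSO in G266, AZA to DMSO in ZFTMA, and untreated to DMSO in ZFTMA (at least 10 fragments, 0.5 added, scaled by reads outside peaks). Red points are members placed by the expression list, grey points its other genes and black lines medians; red and grey clouds overlap throughout, with medians of -2.61 and -2.50 in G266 and -3.30 and -3.19 in ZFTMA.

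Named members differed in their gene-end fragments. Without the strand, the places of peaks are named by coordinate and do not tell promoters from 3' ends. At EPCAM, all 4 gene-end peaks fell. The peak with the smallest adjusted p (chromosome 3, 21150374 to 21151445) lay outside the gene at its lower coordinate. It had 12 and 10 fragments in AZA-treated G266 and ZFTMA, against 56 and 41 in DMSO-treated G266 and ZFTMA (log2 change of -2.99 at an adjusted p of 6.03e-08 by edgeR). At DSP, 2 of 5 peaks fell, and the strongest lay at the higher coordinate of the gene (chromosome 2, 44997956 to 44999843). It had 30 and 38 fragments after AZA in G266 and ZFTMA and 156 and 202 after DMSO (log2 change of -3.29, adjusted p of 5.24e-06 by edgeR). CCBE1 had the largest change of any peak shown here (chromosome Z, 40026117 to 40026451), with 1 and 1 fragments after AZA in G266 and ZFTMA, against 19 and 20 after DMSO (log2 change of -5.02, adjusted p of 3.24e-10 by edgeR). In each of these peaks the unscaled fragments after AZA were fewer than in the DMSO library of the same line. The AZA libraries also held fewer fragments over all peaks, 2549052 and 2722135 in G266 and ZFTMA, against 10358829 and 8574525 after DMSO. The calls depend on the scaling. With non-duplicate reads as library size, the adjusted p by edgeR was 0.103 at EPCAM, 0.00103 at DSP and 0.0156 at CCBE1. With TMM on the peak counts, the adjusted p by edgeR was 0.978, 0.884 and 0.311, so that none of these peaks was called. The study's lists of genes with a lower promoter peak, as used here, do not hold EPCAM, DSP or CCBE1. Those lists cover promoter peaks only, so they do not tell whether the study called these peaks lower.

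Elsewhere the coverage was low from the start. ARHGAP40 had 5 and 4 gene-end fragments in AZA-treated G266 and ZFTMA, against 14 and 2 in DMSO-treated G266 and ZFTMA, and neither of its 2 peaks fell (smallest adjusted p of 0.162 by edgeR). SLC39A8 had 6 and 15 fragments after AZA in G266 and ZFTMA and 28 and 6 after DMSO, so that the scaled log2 ratio came to -2.64 for G266 and -0.02 for ZFTMA. Its peak at the lower coordinate of the gene (chromosome 4, 21339266 to 21339398) had 3 and 6 fragments after AZA, against 9 and 5 after DMSO. The log2 change was -1.49 at an adjusted p of 0.0795 by edgeR. The direction of this change turned with TMM or non-duplicate reads as library size. At ARHGAP40 and SLC39A8, no drop of gene-end fragments was detectable in ZFTMA at this depth. SLC1A1 had 18 and 12 gene-end fragments after AZA in G266 and ZFTMA, against 59 and 18 after DMSO, with 2 of 4 peaks that fell. WT1, by contrast, kept 127 and 142 fragments after AZA in G266 and ZFTMA, against 258 and 403 after DMSO, while all 4 of its peaks fell. Over the 20 named members placed by the expression list, 19 had at least 1 peak that fell, ARHGAP40 being the exception, against 1170 of the 1209 other genes of that list (96.8%).

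In untreated ZFTMA, the methylation degree at gene ends varied widely among the members. RRBS measured at least 5 CpGs with at least 10 reads each at the gene ends of 18 of the 29 members (510 CpGs). The mean methylation degree per gene ran from 21.7% to 95.7%, with a median of 63.1% ± 24.7 (SD between 18 genes). Over the 780 other genes of the expression list that were measured, the median was 60.2% ± 25.9 (SD between genes), with a range of 5.64% to 98.7%. By this mean, in which each CpG counts equally, none of the 18 members and 94 of the 780 other genes were below 20%. From 20% to under 40% lay 4 members (22.2%) and 17.4% of the other genes. At 80% or more were 6 members (33.3%) and 23.7% of the other genes. There was 1 RRBS library, so the degrees have no replicate error.

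The named members also varied widely by the read-weighted degree, in which each CpG counts by its reads. Read-weighted, the degree was 95.7% at BARX2 (11 CpGs, 231 reads, 95% Wilson interval 92.2 to 97.6%), 84.4% at CALML3 (44 CpGs, 83.1 to 85.7%) and 66.1% at WT1 (84 CpGs, 7228 reads). It was 27.9% at EPCAM (65 CpGs, 27.0 to 28.8%), 26.0% at TRIM36 (46 CpGs, 24.9 to 27.2%) and 17.1% at SLC2A10 (12 CpGs, 15.7 to 18.6%). The unweighted mean at SLC2A10 was 21.7%, so whether a member lay below 20% depended on the measure. Reads from PCR are not independent molecules, so these intervals cover counting error only. EPCAM, TRIM36 and SLC2A10 were therefore among the least methylated members measured, and BARX2 was among the most methylated. A relation between this degree and the RNA ratio was not tested.

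**Figure D4:**
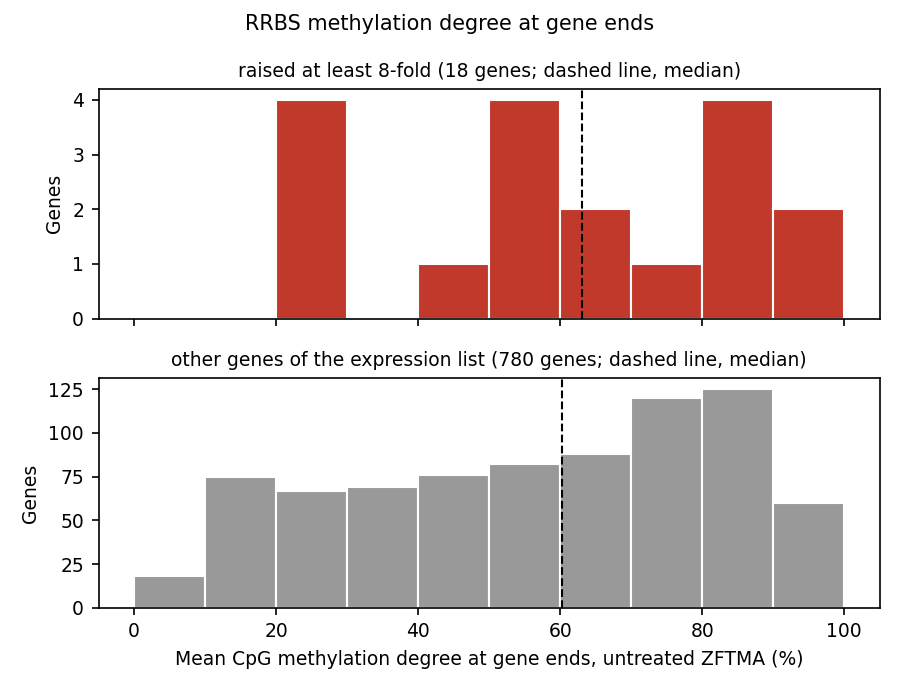
Histograms of the mean CpG methylation degree at gene ends in untreated ZFTMA (x axis, percent, 10 points per bar; y axis, number of genes) for the 18 measured members (top) and the 780 other measured genes of the expression list (bottom). Dashed lines mark the medians of 63.1% and 60.2%; the members range from 21.7% upward, with none in the lowest bars.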

How the data were processed

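RNA-seq, MethylCap-seq and RRBS files of G266 and ZFTMA cells were used as deposited. The authors mapped RNA-seq reads with STAR 2.3.0 and deposited raw gene counts (Ensembl release 72), and they deposited MethylCap-seq fragment counts per Methylation Peak (Bowtie2 2.1.0, duplicates removed) and, for RRBS, the percent methylation and coverage signal per CpG (Bismark 0.9.0). Groups follow the labels, with 1 library per line and treatment, so p-values measure only the spread between these libraries. The members and lists were chosen with earlier results of these data known. Named genes are members with a symbol; the 12 with the highest mean CPM after AZA and the 12 with the largest smaller ratio are given in full, and for MethylCap-seq the gene-end peak with the smallest adjusted p.

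Counts were tested with edgeR 4.0.16 (R 4.3.3; glmQLFit, glmQLFTest, Benjamini-Hochberg FDR of 0.1) after PoissonSeq depth (RNA) or reads outside peaks (MethylCap-seq), with cell line as block. The pairing comes from the cell line, and deviations from the treatment means correlated at 0.274 (RNA-seq) and 0.199 (MethylCap-seq). Scripts were tested on simulated data. Symbols and positions came from the study's gene lists; 0 identifiers matched the RefSeq table given, so sequences are not shown. Alternatives were other scalings, filters, thresholds, windows, DESeq2, no block and single lines. Depth was 22306354 to 35075936 counts for RNA-seq.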

Additional observations from a re-analysis of the deposited data

How the results depend on the processing

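The count of 85 genes followed the thresholds: it was 145 with a minimum of 5 DMSO counts, 44 with 20, 282 at 4-fold and 26 at 16-fold. Over single lines it ranged from 110 (G266 alone) to 159 (ZFTMA alone, without G266). Both sets held all 85 by definition, since the members had to pass in each line. TMM moved the log2 ratio of every gene by -0.17 in G266 and -0.21 in ZFTMA. With PoissonSeq depth 80 of the genes remained, with TMM 70, and with the counts of both lines summed, an alternative chosen after seeing the data, 102. As for genes called higher in RNA-seq, DESeq2 called 2361, against 5183 by edgeR. All 85 members were called under each of the 5 alternatives, which follows from how they were chosen and is no support.

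The scaling decided the MethylCap-seq calls. Of the 116 gene-end peaks of members, 82 fell with reads outside peaks as library size. With non-duplicate reads 29 fell, and with TMM on peak counts 0 fell. Over the expression list the shares were 72.1%, 21.7% and 0.0773%. Another library size moved the log2 ratios of all peaks of a line alike. In G266 the median over all peaks with at least 10 counts was -2.54 with reads outside peaks, -0.82 with non-duplicate reads and -0.02 with peak counts. In ZFTMA it was -3.06, -0.80 and -0.13. Which scaling fits these libraries was not tested. In windows of 1000 bp, 48 of 63 peaks fell (76.2%, against 79.1% over the expression list). Over whole genes 565 of 1011 fell (55.9%, against 58.9%). Without the replicate block, 92 of the 116 peaks fell (79.3%, against 76.4%) and 4217 genes were called higher. With these windows or without the block, the members' share was thus near that of the expression list. The median log2 ratio of gene-end peaks, a mean over lines of -3.01, was -1.02 with non-duplicate reads and -0.28 with the sum of peak counts, and ran from -3.36 to -2.66 over single lines. The strongest peak of SLC39A8 turned to 0.90 (TMM) and 0.46 (non-duplicate reads), and that of ARHGAP40 to 0.84 and 0.38. The pooled RRBS degree of 52.7% (18 members, 510 CpGs) was 37.9% in windows of 1000 bp outside the gene (8 members, 142 CpGs). Over the expression list it was 48.9% and 42.4%. These narrower windows also leave out the 500 bp inside the gene, so the measured genes and the windows both differ.

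With 1 library per line and treatment and very like RNA-seq libraries of the lines, the spread between replicates may be technical. Ratios rest on as few as 10 control counts. Only 29 of 85 genes had positions from a list chosen on RNA alone, gene ends stand in for promoters, and peaks were defined on the DMSO libraries.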
